A study of Mus musculus with 2 samples.

Results

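The neuronal cluster that the authors deposited under the name neuron.3 held 462 of the 18281 brainstem nuclei of this single-nucleus RNA sequencing (snRNA-seq) study, 143 from the WT library and 319 from the HET library. Its members are the nuclei that carry this cluster name, and no expression value of a single gene was used to choose them. The cluster is 1 of 9 neuronal clusters among 16 clusters in all, and the other 8 neuronal clusters together held 11049 nuclei (5975 WT, 5074 HET). The libraries came from 1 wild-type (WT) mouse and 1 mouse heterozygous for a knock-in missense allele of *Scn1a*, *Scn1a* A1783V/WT (HET), a mouse model of Dravet syndrome. Both were female and 41 days old, and neither was treated. HET animals descended from males with a floxed-stop A1783V allele and *Sox2*-cre females, in which the recombinase acts throughout the early embryo, so that the allele was not restricted to neurons or to the brainstem. They were kept on a C57BL/6J background. A seizure before tissue collection was not a condition for including an animal. Nuclei were extracted from frozen brainstem and profiled with 10x Chromium 3′ v3.1 chemistry, in which each captured RNA molecule is counted once through its unique molecular identifier (UMI).

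*Scn1a* encodes the voltage-gated sodium channel NaV1.1, which carries sodium current at the axon initial segment and nodes of many fast-firing neurons, and loss of its function in inhibitory neurons is the best-known basis of Dravet syndrome. Brainstem neurons are usually sorted by the transmitter they load and release. Glutamatergic neurons fill vesicles through the transporters *Slc17a6*, *Slc17a7* and *Slc17a8* (VGLUT2, VGLUT1 and VGLUT3). GABAergic neurons make GABA with *Gad1* and *Gad2*, glycinergic neurons take glycine up with *Slc6a5* (GlyT2), and both load vesicles with *Slc32a1*. Glycine and GABA are released together by many inhibitory neurons of the hindbrain, whereas the forebrain relies on GABA.

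Levels are given as CPM, the UMIs of a gene summed over a group of nuclei per 1000000 UMIs of that group in that library. Libraries are compared by the log2 of the HET level divided by the WT level, called the ratio below, and a positive value is higher in HET. Exact 95% intervals (Poisson for a level, conditional binomial for a ratio, Clopper-Pearson for a share) measure the error of counting and nothing else. As each genotype has 1 library, there was no test and no replicate check, and the genotype, the animal, the dissection and the library cannot be told apart. A gene seen in the summed UMIs can differ because fewer nuclei express it or because each nucleus holds less of it, and these cannot be told apart in the sums. The WT library held 70301390 UMIs and the HET library 66176778, of which neuron.3 contributed 1646867 and 3548909. The median nucleus of neuron.3 held 10335 UMIs in WT and 10055 in HET, above the medians of 7634 and 8280 in the other neuronal clusters, and the lowest totals in neuron.3 were 2961 and 2132 UMIs. Of the 23 cell barcodes found in both libraries, 1 belonged to a nucleus of neuron.3. Ribosomal protein genes gave a median of 0.451% of the UMIs of a WT nucleus and 0.289% of a HET nucleus in neuron.3 (0.577% and 0.337% in the other neuronal clusters), so the libraries differed in this quality value in all neurons.

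The neuronal label held in both libraries. All 462 nuclei carried the deposited reference label of neurons, and 10 pan-neuronal markers summed to 18048 CPM in WT and 18373 CPM in HET, against 18917 and 19784 CPM in the other neuronal clusters and 1811 and 2488 CPM in the oligodendrocyte cluster. The sub-label of activated neurons was given to 1 WT nucleus (0.699%) and to 20 HET nuclei (6.27%), and in the other neuronal clusters to 1.14% and 4.95%. Markers of oligodendrocytes, the myelin-forming cells, were all detected (8 of 8) but summed to 425 CPM in WT and 663 CPM in HET, compared with 17096 and 19427 CPM in the oligodendrocyte cluster. Markers of cholinergic neurons summed to 4.86 and 4.51 CPM (30.8 and 20.2 CPM in the other neuronal clusters), and those of the inferior olive to 1.21 and 0.564 CPM. The 23 *Hox* genes, which mark the caudal hindbrain, summed to 52.2 CPM in WT and 26.8 CPM in HET, below the 201 and 114 CPM of the other neuronal clusters. The factors *Gata3*, *Tal1* and *En1*, known from the midbrain and rostral hindbrain, were above the other neuronal clusters in both libraries. *Gata3* stood at 18.2 CPM in WT and 9.58 CPM in HET (other neuronal clusters, 7.93 and 6.19 CPM), *Tal1* had 21.9 and 6.76 CPM (3.73 and 2.25 CPM), and *En1* had 10.3 and 3.94 CPM (1.06 and 1.41 CPM). These levels were not shared by the whole cluster. In HET, the 10 factors of this group summed to 50.4 CPM in subcluster 19, a finer cluster described below. Their sum was 13.3 CPM in subcluster 37 and 3.27 CPM in subcluster 34, against 20.6 CPM in the other neuronal clusters.

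To ask whether the cluster took the same share of both libraries, its nuclei were counted. In the WT library 143 of 9259 nuclei fell in neuron.3, a share of 1.54% (1.30 to 1.82%), and in the HET library 319 of 9022, a share of 3.54% (3.16 to 3.94%). The HET share was 2.29 times the WT share (1.87 to 2.81). Among neuronal nuclei alone the shares were 2.34% and 5.92%, a ratio of 2.53 (2.07 to 3.1).

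The larger HET share was unevenly spread over the cluster. The authors' finer clustering (resolution 1.5) split neuron.3 into subclusters 19, 34 and 37, named here by their deposited numbers. Subcluster 19 held 126 WT and 135 HET nuclei, 1.36% and 1.50% of the libraries, a ratio of 1.10 (0.856 to 1.41). Subcluster 34 held 13 WT and 100 HET nuclei, a ratio of shares of 7.89 (4.41 to 15.3). Subcluster 37 held 4 WT and 84 HET nuclei, a ratio of 21.6 (8.11 to 80.9). Subclusters 34 and 37 together therefore made up 17 nuclei or 11.9% (7.08 to 18.4%) of neuron.3 in WT and 184 nuclei or 57.7% (52.1 to 63.2%) in HET. A further 51 WT and 50 HET nuclei of fine cluster 19 lay outside neuron.3, whereas 1 WT nucleus of fine cluster 34 and 3 HET nuclei of fine cluster 37 did.

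**Figure D1:**
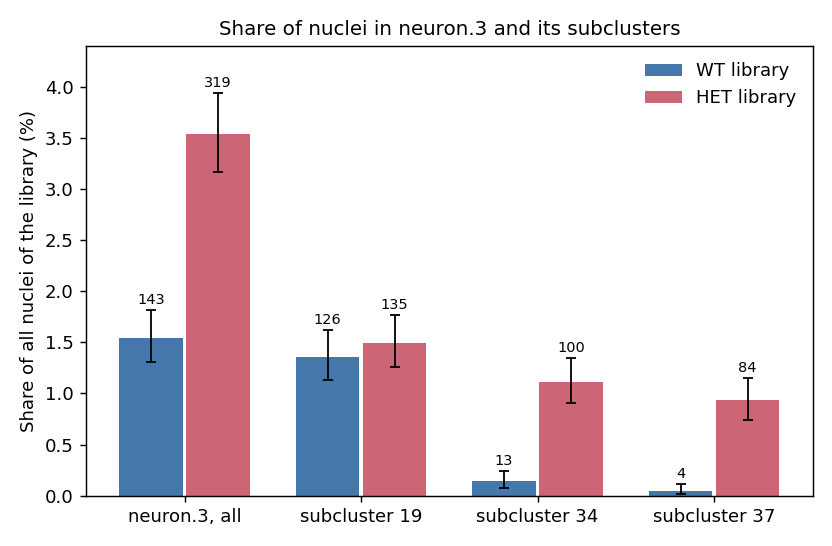
Share of all nuclei of a library (%, y axis) that fell in neuron.3 and in its deposited subclusters 19, 34 and 37 (x axis), with WT and HET libraries as separate bars and exact 95% binomial intervals as error bars. The shares for subcluster 19 lay side by side (1.36% and 1.50%), and the HET bar was higher for subclusters 34 (1.11% against 0.140%) and 37 (0.931% against 0.0432%).

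Because subclusters 34 and 37 came almost wholly from the HET library, a subcluster and its library cannot be told apart there. The HET nuclei of subcluster 34 had a median of 11558 UMIs and a median doublet score of 0.208, whereas those of subcluster 37 had 6407 UMIs, a score of 0.0914 and a median of 0.433% mitochondrial UMIs, against 0.194% in the HET nuclei of subcluster 19. Summed oligodendrocyte markers reached 1038 CPM in the HET nuclei of subcluster 37 and 538 CPM in those of subcluster 19. Whether these values bear on the share was not tested. The ratio for the whole cluster was 2.18 without the 5% of nuclei with the highest doublet scores.

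The overall profile of neuron.3 was nearest to that of neuron.1, the largest neuronal cluster with 9111 nuclei. Over 20469 genes, Pearson's r of log2(CPM + 1) was 0.967 with neuron.1, 0.953 with neuron.4, 0.947 with neuron.2 and 0.628 with neuron.9, the smallest cluster with 37 nuclei. These correlations run across genes, which are not independent replicates, and describe likeness alone. In HET, subcluster 19 correlated with subcluster 34 at 0.947, with subcluster 37 at 0.926 and with neuron.1 at 0.951. Subcluster 34 was nearer to subcluster 19 than to neuron.1 (0.936), whereas subcluster 37 was nearest to neuron.1 (0.939).

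Genes that set neuron.3 apart are a description, since the clusters were drawn from the same counts. Of 18927 genes with at least 50 UMIs, 571 (3.02%) were more than 2-fold higher in neuron.3 than in the other neuronal clusters in both libraries, and 908 (4.8%) were more than 2-fold lower in both. The 20 genes furthest above the other neurons all had a higher pooled level in neuron.3 than in any of the 8 other neuronal clusters, and 15 of them did so in each library.

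*Ttn*, which encodes the giant sarcomere protein titin, had 355 CPM in WT and 359 CPM in HET, against 16.0 and 18.9 CPM in the other neuronal clusters, 22.2-fold and 18.9-fold differences. Its highest level in another neuronal cluster was 21.2 CPM in neuron.7, so neuron.3 stood well clear. *Fn1*, which encodes the extracellular matrix glycoprotein fibronectin, had 61.3 and 83.4 CPM against 2.19 and 1.53 CPM. UMIs of *Fn1* lay in 9.79% of WT and 12.9% of HET nuclei, and 100 of its 101 WT UMIs and 292 of its 296 HET UMIs came from subcluster 34, and subcluster 19 was at 0.664 and 2.32 CPM. The long non-coding gene *4930401C15Rik* had 54.0 and 42.5 CPM against 0.694 and 1.13 CPM, and 218 of its 240 UMIs came from subcluster 19. *Enpep*, which encodes glutamyl aminopeptidase, had 36.4 and 29.3 CPM, and *Myh7b*, a myosin heavy chain gene, had 29.1 and 25.9 CPM. *Ttn* lies at chr2:76703980-76982547 on the minus strand and *Fn1* at chr1:71585520-71653200 on the minus strand (mm10).

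Signalling genes and transcription factors followed. The basic leucine zipper factor *Maf* had 667 CPM in WT and 416 CPM in HET against 86.5 and 48.5 CPM in the other neuronal clusters, but neuron.2 came near it with 435 CPM. *Fshr*, the receptor for follicle-stimulating hormone, had 11.5 CPM in WT and 93.8 CPM in HET against 2.29 and 4.2 CPM, so that it stood apart far more in the HET nuclei. *Slc7a2*, a transporter of cationic amino acids, had 41.3 and 67.9 CPM, *Inhbb*, the beta B subunit of inhibins and activins, had 21.9 and 18.0 CPM, and *Prkcd*, the kinase PKC delta, had 16.4 and 28.7 CPM. *Gm15655* (15.2 and 28.5 CPM) overlaps *Maf* on the opposite strand, and reads of such a pair may not be separable.

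**Figure D2:**
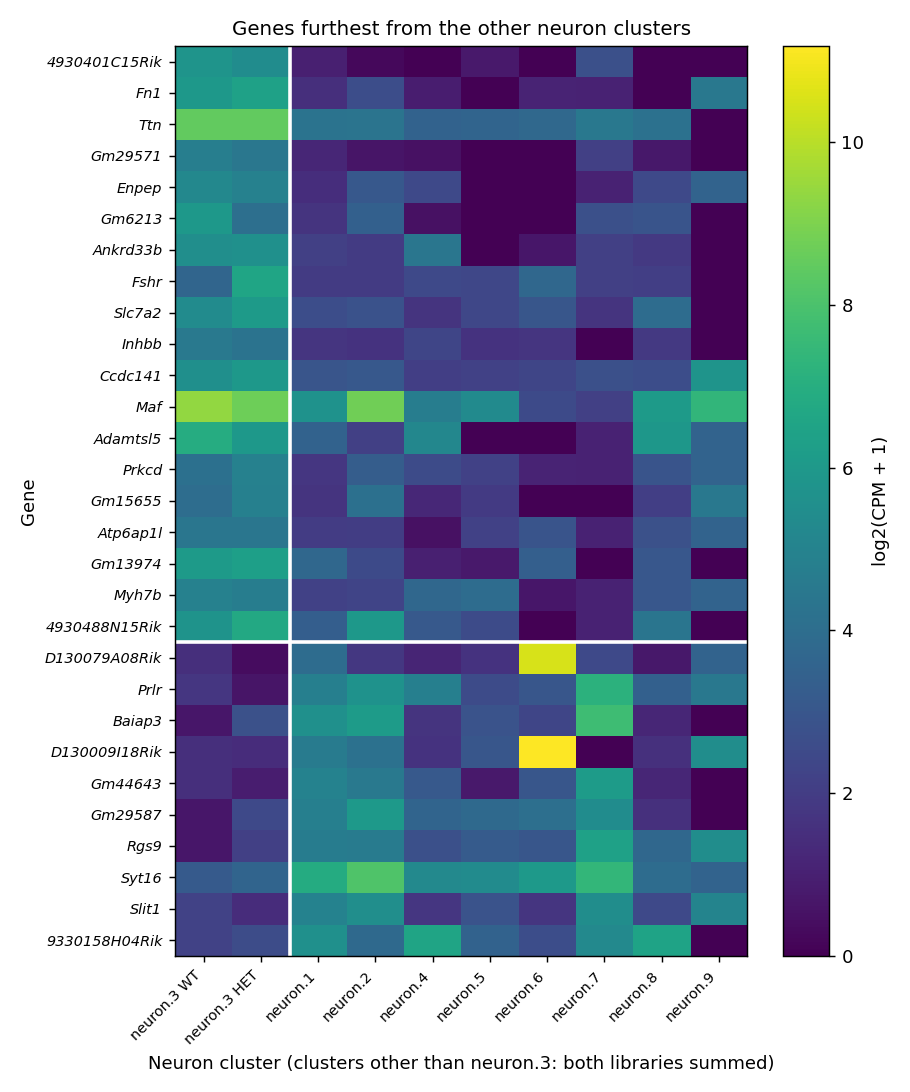
Heat map of log2(CPM + 1), colour scale, for genes furthest above and furthest below the other neuronal clusters (rows), in neuron.3 by library and in the 8 other neuronal clusters with both libraries summed (columns). *Ttn* is brightest in the columns of neuron.3 (355 and 359 CPM), *Maf* is also high in neuron.2 (435 CPM), and *D130079A08Rik* is highest in neuron.6 (1454 CPM).

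Among transmitter genes, *Slc6a5* was furthest above the other neurons in the pooled cluster, but not in every subcluster. In subcluster 34 a UMI of *Slc6a5* lay in 0 of 13 WT and 6 of 100 HET nuclei. The pooled levels of *Slc6a5* follow. It had 217 CPM (195 to 240) in WT and 142 CPM (130 to 155) in HET, against 93.6 and 60.2 CPM in the other neuronal clusters, and neuron.1 came next with 91.9 CPM. Neuron.3 was thus 2.32-fold above the other neurons in WT and 2.36-fold in HET. *Gad1*, *Gad2* and *Slc32a1* were close to the other neurons, with neuron.3 at 1.10-fold, 1.15-fold and 1.18-fold of their level in WT. Of 3 calcium-binding protein genes, *Calb1* and *Pvalb* were more than 2-fold above the pooled other neurons in both libraries, and *Calb2* was not. Neither was particular to neuron.3. *Calb1* reached 267 CPM in neuron.6 and 76.2 CPM in neuron.2, and *Pvalb* 711 CPM in neuron.9. *Calb1* (calbindin) had 75.9 and 90.5 CPM against 22.5 and 17.8 CPM, and *Pvalb* (parvalbumin) had 61.9 and 54.1 CPM against 23.5 and 16.2 CPM. *Slc6a5* lies at chr7:49910146-49963856 on the plus strand.

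Channel and adhesion genes were counted where they lay more than 2-fold above or below the other neurons in both libraries. Of 44 potassium and HCN channel genes with at least 20 UMIs, 3 were higher and 6 lower. Of 11 sodium channel genes 0 were higher and 2 lower, and of 15 calcium channel genes 0 and 3. Of 29 adhesion genes 1 was higher and 0 lower. All genes with at least 50 UMIs in the 2 groups gave 3.02% higher and 4.8% lower. *Kcnh5*, an ether-a-go-go potassium channel, had 221 CPM in WT and 268 CPM in HET against 93.7 and 110 CPM. *Cntn5*, an axonal contactin, had 4472 and 5353 CPM against 1252 and 1394 CPM. Both were above the other neurons in both libraries. The nuclear receptor genes *Rora* (2065 and 2756 CPM against 1109 and 1224 CPM) and *Rorb* (225 and 116 CPM against 58.5 and 52.7 CPM) were also above the pooled other neurons. So was the bicarbonate transporter gene *Slc4a4* (239 and 268 CPM against 58.7 and 65.7 CPM). Among single other clusters, *Rora* reached 1704 CPM in neuron.2 and *Slc4a4* 204 CPM in neuron.5. *Rorb* reached 162 CPM in neuron.9, above its pooled 150 CPM in neuron.3. *Gabrd*, the delta subunit of extrasynaptic GABA-A receptors, was at 15.2 and 13.5 CPM against 1.47 and 2.61 CPM.

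Genes that were low in neuron.3 included receptor and release genes common in other neurons. *Gabrb1*, a GABA-A receptor subunit, had 44.9 CPM in WT and 73.5 CPM in HET against 475 and 505 CPM. *Gabra2* had 31.6 and 40.3 CPM against 159 and 191 CPM. Of the 18 GABA-A and glycine receptor genes with at least 20 UMIs, 7 were more than 2-fold lower in neuron.3 than in the other neurons in both libraries. *Gabrd* alone was more than 2-fold higher. Of all genes at the stricter count of 50 UMIs in the 2 groups, 4.8% were lower and 3.02% higher in this way. *Syt16*, a synaptotagmin, had 7.89 and 11 CPM against 114 and 119 CPM, *Unc13c*, a vesicle priming gene, had 82.0 and 105 CPM against 448 and 543 CPM, and the sodium-activated potassium channel gene *Kcnt2* had 9.72 and 14.9 CPM against 117 and 120 CPM. *Prlr*, the prolactin receptor, had 4 UMIs in WT and 2 UMIs in HET (2.43 and 0.564 CPM).

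The subclusters differed in transmitter genes more than the cluster differed from other neurons. Subcluster 19 had *Slc6a5* at 235 CPM in WT and 224 CPM in HET, levels that lay within each other's intervals (211 to 261 and 203 to 248). Its leading genes included *Ttn* (388 and 683 CPM), *Sema5b* (a transmembrane semaphorin, 124 and 135 CPM), *Col16a1* (a collagen, 118 and 118 CPM) and *Rorb* (244 and 205 CPM). Subcluster 34 had the vesicular glutamate transporters and hardly any inhibitory genes. *Slc17a6* was at 151 CPM in WT and 130 CPM in HET there, and *Slc6a5* had 0 UMIs in WT (upper bound 37 CPM) and 5.71 CPM in HET. Its leading genes included *Fn1* (1004 and 238 CPM), the zinc finger gene *Bnc2* (482 and 488 CPM) and the lineage factor *Ebf1* (1316 and 1347 CPM). Subcluster 37 had *Gad2* at 169 CPM in WT and 150 CPM in HET, *Slc6a5* at 72.3 and 185 CPM (152 to 223 in HET, overlapping the HET interval of subcluster 19), and *Slc17a6* at 0 UMIs in WT and 16.7 CPM in HET. Its leading genes included the receptor tyrosine kinase *Kit* (0 UMIs in WT and 162 CPM in HET), the adhesion gene *Dscaml1* (626 and 537 CPM) and *Prkcd* (385 and 88.4 CPM).

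The few WT nuclei of subcluster 34 did not have the levels of their HET counterparts in every gene. In the 13 WT nuclei of subcluster 34, *Fn1* was at 1004 CPM against 238 CPM in HET. *Cntnap5c*, a neurexin-like adhesion gene, was lower there in WT (241 CPM) than in HET (700 CPM), while *Slc17a7* rested on 3 UMIs of 1 WT nucleus (30.1 CPM, 6.21 to 88.1, against 97.1 CPM, 80.5 to 116). *Kcnd2*, which carries A-type potassium current, had no UMI in these WT nuclei and 771 CPM in HET. In the 4 WT nuclei of subcluster 37, *Prkcd* was at 385 CPM against 88.4 CPM in HET, but this is 16 UMIs, 12 of them in 1 nucleus. The 3 subclusters were left without a cell type name.

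**Figure D3:**
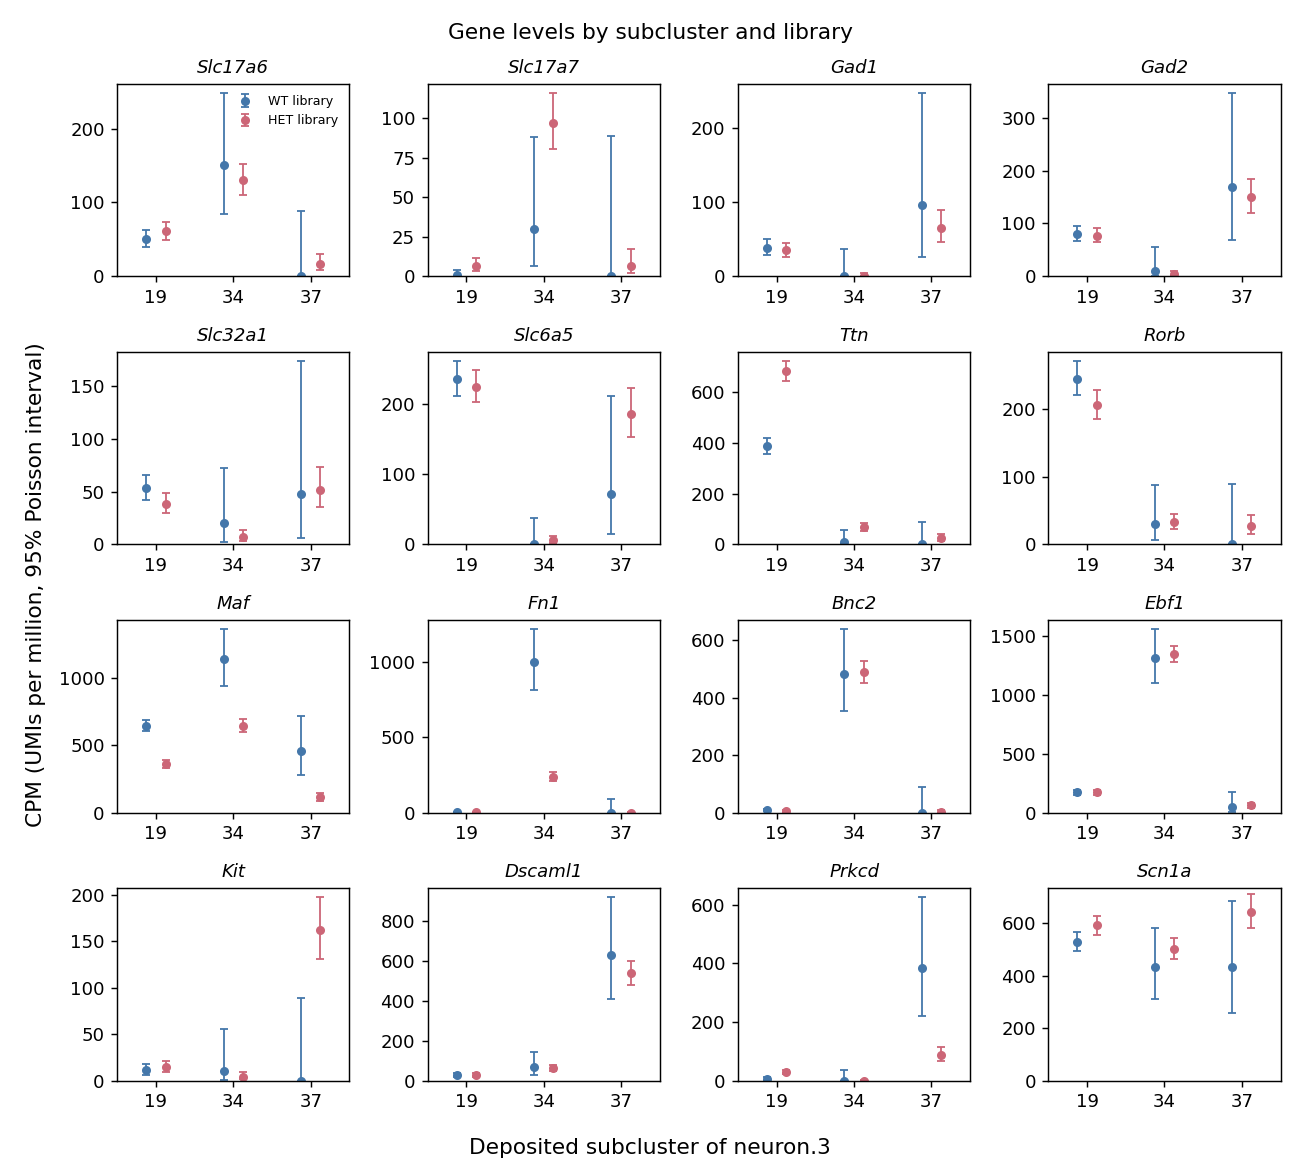
Level (CPM, y axes, each from 0) of 16 genes in deposited subclusters 19, 34 and 37 of neuron.3 (x axes), with WT and HET libraries as separate points and exact 95% Poisson intervals as bars. *Slc6a5* is high in subcluster 19 (235 and 224 CPM), *Slc17a6*, *Bnc2* and *Ebf1* are high in subcluster 34, and *Gad2*, *Kit* and *Dscaml1* are high in the HET nuclei of subcluster 37, where wide WT intervals come from 4 nuclei.

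Counting nuclei rather than UMIs gave the same division. A nucleus was called glutamatergic where it held a UMI of *Slc17a6*, *Slc17a7* or *Slc17a8*, and inhibitory where it held a UMI of *Slc32a1*, *Gad1*, *Gad2* or *Slc6a5*. Of the nuclei of neuron.3, 92 (64.3%) were inhibitory only in WT and 151 (47.3%) in HET, while 21 (14.7%) and 94 (29.5%) were glutamatergic only. In subcluster 19, 69.8% of WT and 63.0% of HET nuclei were inhibitory only. In subcluster 34, 8 of 13 WT and 72 of 100 HET nuclei were glutamatergic only, and in subcluster 37, 3 of 4 WT and 64 of 84 HET nuclei (76.2%) were inhibitory only. None of the 84 HET nuclei of subcluster 37 was glutamatergic only, which allows a share of up to 3.57% at 3 counts (Clopper-Pearson upper bound 4.30%). Free RNA also gives such UMIs, since 10.0% of WT and 12.3% of HET oligodendrocyte nuclei were glutamatergic only and 20.9% and 16.5% inhibitory only, at median depths of 2738 and 2854 UMIs.

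At equal depth the glycinergic marker stayed above that background in the cluster as a whole, but not in subcluster 34. With each nucleus thinned to 1000 UMIs, for which none was too shallow, the expected share with a *Slc6a5* UMI was 18.6% in WT and 12.2% in HET, against 2.57% and 1.79% of oligodendrocyte nuclei (unthinned, 66.4% and 46.4% against 6.96% and 5.25%). Within subcluster 19 it was 20.9% and 19.97%, nearly level between the libraries. In the HET nuclei of subcluster 34 it was 0.584%, below the share in oligodendrocyte nuclei, and in those of subcluster 37 it was 13.5%. *Slc17a6* was at 4.79% and 6.49% against 4.51% and 4.32% (unthinned, 27.3% and 38.6% against 12.3% and 12.3%). At equal depth the WT share of *Slc17a6* for the cluster as a whole was thus close to that of oligodendrocyte nuclei. WT nuclei held a mean of 11517 UMIs in neuron.3 and 3307 UMIs in the oligodendrocyte cluster. Thinning does not equalise the part of these UMIs that is free RNA, so it cannot decide whether *Slc17a6* exceeded that background. In subcluster 34 the thinned share of *Slc17a6* was 14.7% in WT and 12.2% in HET. *Slc17a7* was at 0.276% and 3.40% against 0.265% and 1.05%, and in the HET nuclei of subcluster 34 at 9.14%. The unthinned shares of *Slc17a7* were 1.40% of WT and 24.8% of HET nuclei.

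To compare the libraries within neuron.3, ratios were taken for 10012 genes with at least 50 UMIs. Their median log2 ratio was −0.07, as in the other neuronal clusters (−0.07). More than 2-fold differences were found for 336 genes (3.36%) that were higher in HET and for 233 genes (2.33%) that were lower. At least 20 UMIs left 12978 genes, of which 712 (5.49%) and 515 (3.97%) passed. Within subcluster 19 alone, where the libraries held similar numbers of nuclei, 130 of 8152 genes (1.59%) were more than 2-fold higher in HET and 224 (2.75%) were lower. Of the genes higher in all of neuron.3, 158 had at least 50 UMIs in subcluster 19 and 82 of these passed 2-fold there, and of the genes lower, 156 had as many UMIs and 115 passed. Many of the ratios below are given with their values in subcluster 19.

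Among the 15 genes with the largest ratios, some were far apart between the libraries in all of neuron.3 and near 0 or below it in subcluster 19. *Klhl1*, a kelch-like gene, had 27 UMIs in WT and 513 UMIs in HET, which gave 3.14 (2.58 to 3.76) on the log2 scale, but 0.22 (−0.59 to 1.05) in subcluster 19. *Bnc2* had 59 and 608 UMIs and a ratio of 2.26, against −0.49 in subcluster 19. *Sema3a*, a secreted semaphorin that guides axons, had 26 and 258 UMIs and a ratio of 2.20, against −0.08, but 17 of the 26 WT UMIs lay in 1 nucleus, and without the top nucleus of each library the ratios were 3.53 and 1.33. *Dchs2*, an atypical cadherin, had a ratio of 2.94 against 0.03 in subcluster 19, and *Ror1*, a receptor tyrosine kinase-like gene, 2.25 against −0.33. For these 5 genes the HET level in subcluster 34 was at least 70.2 CPM, whereas the HET level in subcluster 19 was between 4.06 and 18.6 CPM.

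*Slc17a7*, which marks a class of glutamatergic neurons, had the largest ratio. It had 4 UMIs in 2 WT nuclei and 134 UMIs in 79 HET nuclei, a log2 ratio of 3.96 (2.57 to 5.86), and 119 of the HET UMIs came from subcluster 34. Its ratio in the other neuronal clusters was 1.43. *Slc7a15*, an amino acid transporter gene that overlaps *5033421B08Rik*, had 5 and 147 UMIs (3.77), and *Hhip*, an inhibitor of hedgehog ligands, had 7 and 162 UMIs (3.42). Their ratios in subcluster 19 were 3.26 for *Slc17a7*, 1.97 for *Slc7a15* and 1.71 for *Hhip*, all with wide intervals (0.48 to 8.69, 0.37 to 4.0 and 0.06 to 3.76). *Slc17a7* lies at chr7:45163949-45176142 on the plus strand.

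Other genes were also more than 2-fold higher in HET in subcluster 19. *Fshr* had 19 UMIs in WT and 333 UMIs in HET, so that its log2 ratio was 3.02 (2.36 to 3.77), with 2.56 (1.85 to 3.33) in subcluster 19 and 0.88 in the other neuronal clusters. In subcluster 19 it was found in 7 WT and 26 HET nuclei, and leaving out the nucleus with the most UMIs in each library gave 2.91. *Pde1a*, a calcium/calmodulin-dependent phosphodiesterase, had 15 and 197 UMIs (2.61), with 3.02 (2.12 to 4.06) in subcluster 19, where 6 WT and 21 HET nuclei held it. *Bmpr1b*, a receptor for bone morphogenetic proteins, had 10 and 170 UMIs (2.98), with 2.97 in subcluster 19 from 5 WT and 9 HET nuclei. *Chst8*, a sulfotransferase gene, had a ratio of 2.41 in neuron.3 and 1.76 in subcluster 19. For each of these genes the WT UMIs were 19 or fewer, and the ratios rest on few nuclei. *Fshr* lies at chr17:88984952-89200675 on the minus strand.

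*St18*, a zinc finger gene that also marks oligodendrocytes, had 14 and 154 UMIs (2.35), with 1.64 in subcluster 19 and 1.52 in the other neuronal clusters. It is a member of the oligodendrocyte marker list, whose 8 genes were all higher in HET in neuron.3, with a median log2 ratio of 0.85, 0.60 in subcluster 19 and 0.39 in the other neuronal clusters. Their part in the ratio of *St18* was not tested.

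**Figure D4:**
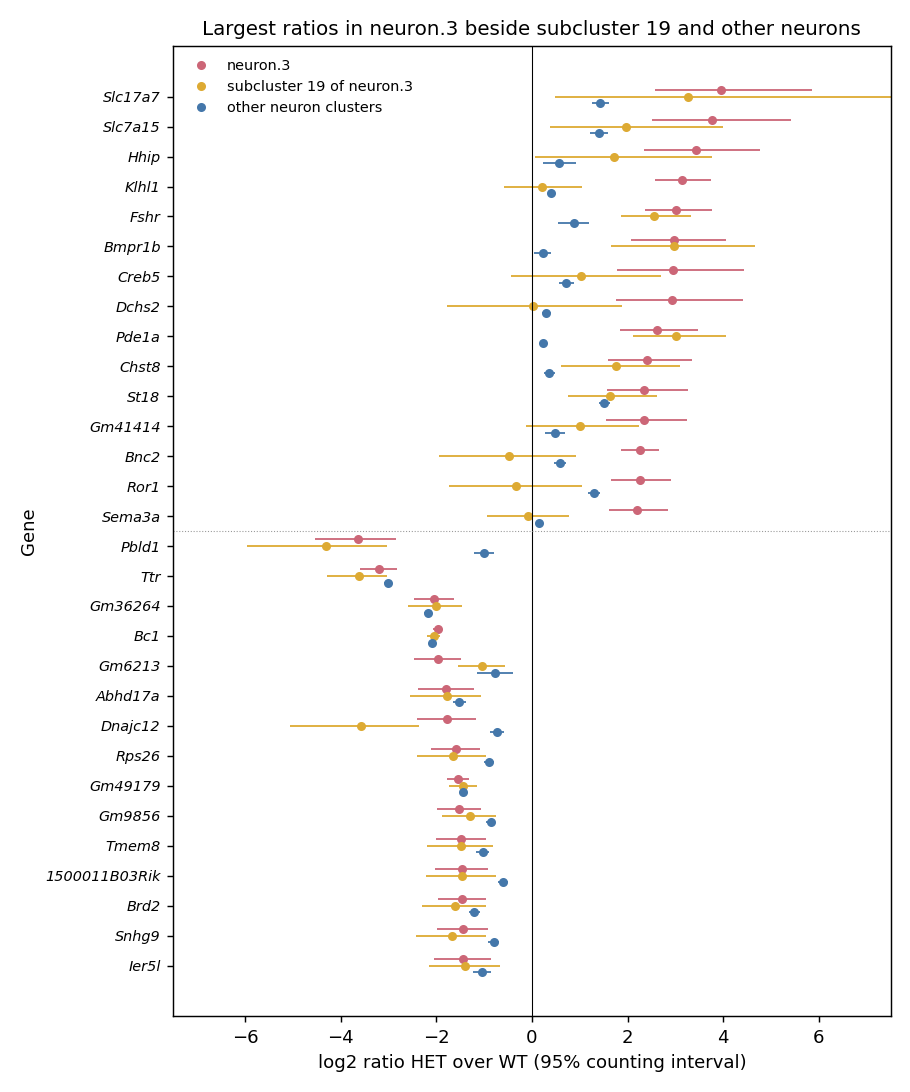
Log2 ratio of the HET to the WT level (x axis) for the 15 highest and the 15 lowest ratios in neuron.3, 1 gene per line, with points for all of neuron.3, its subcluster 19 and the other neuronal clusters and bars for 95% counting intervals. For *Klhl1* the point of subcluster 19 (0.22) lies far from that of neuron.3 (3.14), for *Fshr* the points are near each other (2.56 and 3.02), and for *Bc1* all 3 points nearly coincide (−2.06, −1.97 and −2.10).

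Genes lower in HET were mostly lower in the other neurons as well. *Ttr*, which encodes transthyretin of the choroid plexus, had 299 UMIs in WT and 70 UMIs in HET, so that its log2 ratio was −3.20 (−3.60 to −2.82), with −3.62 in subcluster 19 and −3.01 in the other neuronal clusters. It was found in 87.4% of WT and 19.4% of HET nuclei of neuron.3, shares at or near the background of oligodendrocyte nuclei, of which 86.8% and 23.3% held it. The 6 markers of ependymal and choroid plexus cells, *Ttr* among them, summed to 211 and 41.4 CPM in neuron.3 and to 258 and 51.8 CPM in the other neurons, and their part in the ratio was not tested. *Bc1*, a short cytoplasmic RNA of neurons, had 2397 and 1318 UMIs (−1.97), with −2.06 in subcluster 19 and −2.10 in the other neurons. *Gm36264* (−2.04), *Abhd17a* (−1.79) and *Brd2*, a bromodomain gene (−1.46), had ratios of −2.18, −1.52 and −1.20 in the other neurons. Of the 233 genes more than 2-fold lower in neuron.3, 228 were below 0 in the other neuronal clusters, and of the 336 genes higher, 294 were above 0 there. Both sets of ratios come from the same libraries. Over all 10012 genes the median ratio in the other neuronal clusters was −0.07, so more genes lay below 0 there than above it. The exact share of all genes below 0 there is not given beside these counts.

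Some low ratios rested on single nuclei. *Pbld1* had 87 WT and 15 HET UMIs and the smallest ratio (−3.64), but 81 of the WT UMIs (93.1%) lay in 1 nucleus of subcluster 19, and without the top nucleus of each library the ratio was −0.12. *Dnajc12*, a cochaperone gene, had 62 and 39 UMIs (−1.78), with 32 of the WT UMIs in 1 nucleus and −1.38 without the top nuclei (−3.56 in subcluster 19). *Gm6213* is a leading gene of the cluster whose UMIs in neuron.3 all came from subcluster 19, with 101 UMIs in 25 WT nuclei and 56 UMIs in 19 HET nuclei. Its ratio was −1.96 in neuron.3, −1.05 in subcluster 19 and −0.76 in the other neurons. *Snhg9* (−1.45) overlaps *Rps2*, *Gm49179* (−1.55) overlaps *Dzip1*, and *Rps26* (−1.59) has pseudogene copies, so their counts are uncertain. *Abhd17a*, *Ror1* and *Sox5* also overlap other annotated genes.

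Ratios in neuron.3 were set beside those of the other neuronal clusters to see where the cluster departed from what all neurons shared. The ratio was more than 2-fold above that of the other neurons for 174 of 10012 genes (1.74%) and more than 2-fold below it for 41 (0.41%). The 8 genes furthest above were *Hhip*, *Bmpr1b*, *Klhl1*, *Dchs2*, *Slc17a7*, *Pde1a*, *Slc7a15* and *Creb5*, all among those described as higher in HET except *Creb5*, a transcription factor gene with 6 and 100 UMIs (2.95, with 1.03 in subcluster 19 and 0.72 in the other neurons). Below the other neurons were *Heg1*, a transmembrane gene known from endothelial cells, at −1.07 against 0.75, and *Sox5*, a transcription factor gene, at −1.04 against 0.24. *Heg1* had −1.26 and *Sox5* −0.81 in subcluster 19, so both kept their sign there. *Sox2ot* (−0.58 against 1.05) and *Gm38505* (−0.80 against 1.07), which overlap each other, were level in subcluster 19 (−0.04 and −0.06). *Lhfp* had −0.23 in neuron.3 against 1.17 in the other neurons.

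**Figure D5:**
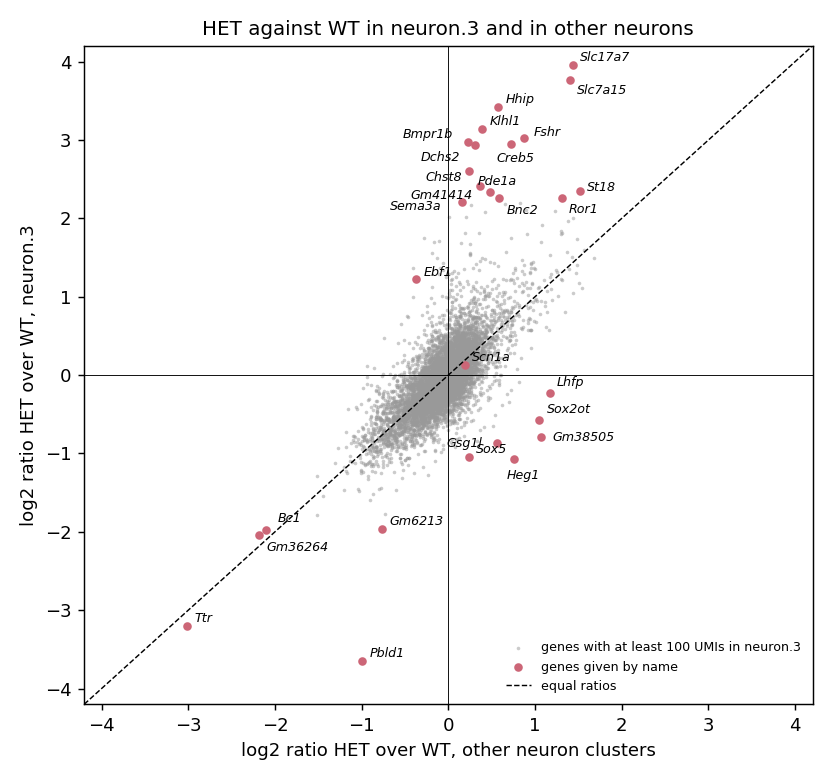
Log2 ratio of the HET to the WT level in neuron.3 (y axis) against that in the other neuronal clusters (x axis), 1 point per gene with at least 100 UMIs in neuron.3, with named genes labelled and a dashed line for equal ratios. *Slc17a7* (3.96 against 1.43) and *Klhl1* (3.14 against 0.39) lie far above the line, *Ttr* (−3.20 against −3.01) and *Bc1* (−1.97 against −2.10) lie near it, and *Heg1* (−1.07 against 0.75) lies below it.

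*Scn1a*, the gene that carries the knock-in allele, was measured in nearly every nucleus of the cluster. It had 857 UMIs in WT and 2022 UMIs in HET, or 520 CPM (486 to 556) and 570 CPM (545 to 595), and 96.5% and 97.8% of nuclei held a UMI, against 19.7% and 20.8% of oligodendrocyte nuclei. The log2 ratio was 0.13 (0.01 to 0.25), with 0.16 (0.03 to 0.30) in subcluster 19 and 0.19 in the other neuronal clusters. The allele changes an amino acid, and counts of the gene do not tell the alleles apart, so they do not check the genotype label. Its levels were 432 and 502 CPM in subcluster 34 and 434 and 644 CPM in subcluster 37. *Scn1a* lies at chr2:66270778-66440840 on the minus strand, where *Gm13630* overlaps it on the opposite strand.

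Sodium, potassium and calcium channel genes were compared next. Lists are described by their members with at least 20 UMIs, beside a median log2 ratio of −0.07 and 44.2% higher for all 12978 such genes. Of 11 sodium channel genes, 6 were higher and 5 lower in HET, none past 2-fold, with a median of 0.13 (0.02 in the other neurons). *Scn9a*, which encodes NaV1.7, had 1303 UMIs in WT and 4056 UMIs in HET (0.53, with 0.52 in subcluster 19 and 0.42 in the other neurons), and *Scn8a*, which encodes NaV1.6, had a ratio of −0.21. Of 44 potassium and HCN channel genes, 28 were higher and 16 lower (median 0.25, 0.15 in subcluster 19 and 0.03 in the other neurons), with 3 more than 2-fold higher and 1 more than 2-fold lower, beside 5.49% and 3.97% of all genes with at least 20 UMIs. *Kcnd2* had 407 and 2556 UMIs (1.54), but −0.11 in subcluster 19. *Kcnc2*, which encodes the fast delayed rectifier Kv3.2, had 236 and 1049 UMIs (1.04), with 1.66 in subcluster 19 and 0.01 in the other neurons. Of 15 calcium channel genes, 9 were higher and 6 lower (median 0.10), with *Cacna2d1*, an auxiliary subunit gene, at 0.72 and *Cacna1a*, the P/Q-type pore gene, at −0.42.

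Among receptors, the GABA-A and glycine group had the largest median of the synaptic lists. Of its 18 genes, 14 were higher and 4 lower, with a median of 0.39, but of 0.11 in subcluster 19 and 0.18 in the other neurons. It had 6 genes more than 2-fold higher, against 5.49% of all genes. Of these, *Gabrb2* had 128 UMIs in WT and 563 UMIs in HET (1.03, with 0.80 in subcluster 19), and *Glra2* had 13 and 89 UMIs (1.67, with 1.73). *Gphn*, which encodes the scaffold gephyrin at inhibitory synapses, had a ratio of 0.11. Of 23 glutamate receptor genes, 11 were higher and 12 lower with none past 2-fold (median −0.00, 0.11 in subcluster 19 and 0.15 in the other neurons). *Gabra4* (1.98) and *Gabrb1* (0.71) overlap on opposite strands.

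Of 25 vesicle release genes, 14 were higher and 11 lower (median 0.12), and 2 were more than 2-fold higher (5.49% of all genes). *Sv2b*, a synaptic vesicle glycoprotein, was among these with 90 UMIs in WT and 402 UMIs in HET (1.05, with 0.33 in subcluster 19). Of 29 adhesion genes, 18 were higher and 11 lower (median 0.09, 0.14 in subcluster 19 and 0.16 in the other neurons), with 3 more than 2-fold higher, against the same 5.49%. *Cntnap5c* had 133 and 1009 UMIs (1.82, with 0.12 in subcluster 19), and *Dscaml1* had 74 and 446 UMIs (1.48, with 0.03). *Nlgn1*, a postsynaptic neuroligin, had a ratio of 0.75 in neuron.3 and 0.06 in subcluster 19.

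Housekeeping lists were lower in HET in neuron.3, as they were in the other neurons. Of 77 ribosomal protein genes, 74 were lower and 3 higher, with a median of −0.74, and 10 were more than 2-fold lower, against 3.97% of all genes (−0.77 in subcluster 19, −0.86 in the other neurons). Of 76 oxidative phosphorylation genes, 72 were lower and 4 higher, with a median of −0.56, and 8 were more than 2-fold lower (−0.56 and −0.61). Of the glycolysis genes 12 of 15 were lower (median −0.15), and of the heat shock and polyubiquitin genes 11 of 13 (median −0.37), with medians of −0.30 and −0.54 in the other neurons. The 5 immediate early genes with enough UMIs were split, 3 higher and 2 lower. More than 2-fold, 1 was higher and 2 were lower, beside 5.49% and 3.97% of all genes. The median of these 5 genes was 0.48, against −0.65 in the other neurons, and 0.47 in subcluster 19 for the 3 with enough UMIs there. *Nr4a1* had 18 and 57 UMIs (0.56, against −0.65 in the other neurons) and *Junb* had 22 and 22 UMIs (−1.11, against −2.02).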

How the data were processed

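The data were snRNA-seq of the brainstem of 1 WT and 1 HET mouse. The authors deposited raw UMI counts per gene and nucleus, made with Cell Ranger (version not given in the sources used here) on its default mm10 reference and filtered in Seurat 4.1. Nuclei the authors called doublets had been removed. The percent values (mitochondrial, ribosomal protein and hemoglobin UMIs of a nucleus), the doublet score, from a caller not named, and the cluster names and numbers were used as the authors deposited them. Whether the counting used strand is not given in the sources used here.

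Within each library, the UMIs of all nuclei in a group were added up and compared as CPM. A gene with 0 UMIs in 1 library was set to 3 counts for its ratio. Shares were thinned to 1000 UMIs per nucleus by expectation. Positions are those of GENCODE vM21 (mm10). Genes named are marker genes with at least 50 UMIs, the 20 highest and 10 lowest against the other neuronal clusters, the 15 highest and 15 lowest HET over WT and the 8 furthest above and below the other neurons (all with at least 100 UMIs), the leading genes of each subcluster, *Scn1a*, and up to 4 members of each list. A few genes that the rule names are not reported here. A few members of a list or marker group outside this rule were chosen after their values were seen. The members and lists were chosen with earlier results of these data known, and the alternatives restricted to subcluster 19 or leaving out the top nucleus were chosen after seeing the data. On simulated counts the ratios were checked for direction and interval coverage. Python 3.11.15 was used with scipy 1.17.1 for the intervals, numpy 2.4.6 and pandas 2.3.3 for sums and matplotlib 3.10.9 for plots.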

Additional observations from a re-analysis of the deposited data

Results flagged for a closer look

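For 7 genes the log2 ratio, HET over WT, had one sign in neuron.3 and the opposite sign in the other neuronal clusters, with counting intervals on opposite sides of 0 and ratios more than 2-fold apart. With 1 library per genotype, the differences were not tested. *Ebf1*, a lineage factor, was higher in HET in neuron.3 (1.22) and lower in the other neurons (−0.37), a difference of 1.59, but its ratio in subcluster 19 was −0.01. *Slc1a2*, a glutamate transporter of astrocytes, was at 1.12 in neuron.3, from 22 and 103 UMIs, and at −0.18 in the other neurons, a difference of 1.30, with 1.14 in subcluster 19. The remaining 5 genes were lower in HET in neuron.3 and higher in the other neurons. The differences were −1.28 for *Sox5*, −1.87 for *Gm38505*, −1.82 for *Heg1*, −1.63 for *Sox2ot* and −1.43 for *Gsg1l* (−0.87 against 0.56). In subcluster 19 the ratio was −0.67 for *Gsg1l*.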

How the results depend on the processing

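No paired analysis was possible because each genotype has 1 library. The ratio of shares was 2.53 among neuronal nuclei, 2.37 without neuron.5, 2.23 for nuclei with at least 2000 UMIs and 2.18 without the highest doublet scores, but 1.10 in subcluster 19 only. Genes more than 2-fold higher and lower in HET numbered 712 and 515 at 20 UMIs, 94 and 31 at 200 UMIs, 1383 and 1996 with at least 1 UMI in each library, and 130 and 224 in subcluster 19 only. Against the other neuronal clusters, the counts of higher and lower genes were 1239 and 170 with equal cluster weights, where the cause was not tested, 258 higher at 200 UMIs, and 995 higher in subcluster 19 only. Ratios above and below those of the other neurons numbered 34 and 6 at 200 UMIs, and 51 were above in subcluster 19 only. In subcluster 19 only, the ratios of *Ebf1* (−0.014), *Bnc2* (−0.49), *Ror1* (−0.33), *Sema3a* (−0.080) and *Kcnd2* (−0.11) changed sign, and 61 of 165 named ratios moved beyond their counting interval. Of 890 ratios of named genes under the other settings of scaling, weighting and nuclei, 849 stayed within it, 41 moved and 0 reversed, and 83 of 84 list medians stayed. Part of this was fixed in advance. Neuron.3 had 0 nuclei under 2000 UMIs, so the 178 ratios and 12 medians of that setting could not move. Centring, and totals without ribosomal protein genes, shift every ratio by the same amount. Giving each nucleus equal weight moved 34 of 178 ratios. The number of lists with a median above 0 was 7 of 12, and 6 to 8 under the alternatives. Leaving out the top nucleus of each library moved 5 of 65 ratios, among them *Slc17a7* (5.90), *Sema3a* (3.53), *Prkcd* (0.81 to 1.55) and *Pbld1* (−0.12). Equal subcluster weights were not run, since subcluster 19 alone held at least 20 nuclei in both libraries. The 13 and 4 WT nuclei of subclusters 34 and 37 limit every value given for them.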

Other observations

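Markers of other hindbrain classes were unevenly spread over the HET nuclei of the subclusters. *Pax2*, a lineage factor of inhibitory neurons, was at 91.8 CPM in subcluster 37, 8.70 CPM in subcluster 19 and 0.816 CPM in subcluster 34. *Tfap2b* was at 46.7 CPM in subcluster 37 and 0.580 CPM in subcluster 19, and *Car8*, known from Purkinje cells, was at 81.8 and 25.5 CPM. *Car8* also had the largest difference between libraries among the Purkinje markers within subcluster 19, with 2.66 CPM in WT and a log2 ratio of 3.26, against 0.95 in the other neuronal clusters. *Calb1* was at 150 CPM in the HET nuclei of subcluster 19, at 83.0 CPM in the WT nuclei, and at 11.7 CPM in the HET nuclei of subcluster 37. *Esrrg*, a nuclear receptor gene, was at 1608 CPM in the HET nuclei of subcluster 34 and 442 CPM in the WT nuclei. *Cntn5* was at 5872 and 803 CPM there.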
